A study of Mus musculus with 2 samples.

Results

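The genes that load peptides onto the cell surface for T cells were examined in the newborn mouse lung. The genes were 10 of the 27254 in the count tables, listed by name, with earlier results of these data known. Of these, 5 belong to major histocompatibility complex (MHC) class I, namely *H2-K1*, *H2-D1*, *B2m*, *Tap1* and *Psmb8*, and 5 belong to class II, namely *H2-Aa*, *H2-Ab1*, *H2-Eb1*, *Cd74* and *Ciita*. All 10 had UMIs in both batches. Whole lungs of female wild-type (wt) C57BL/6J mice at postnatal day 1 (PND1) were dissociated with enzymes, red cells were lysed, and single cells were captured with barcoded beads in droplets (Drop-seq). Each of 2 batches held 1 mouse, and no treatment, genotype or age was compared, so the comparisons were made between cell types of the same lungs. A count is a number of unique molecular identifiers (UMIs), which is a number of captured transcripts, and levels are given as UMIs per 10000 UMIs of the summed cells with an exact Poisson 95% interval that covers counting error only.

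Class I molecules present peptides from the inside of a cell to CD8 T cells and are made by nearly all nucleated cells. *H2-K1* and *H2-D1* encode the heavy chains, which fold with the light chain, beta-2 microglobulin (*B2m*). *Tap1* encodes a subunit of the transporter that brings peptides into the endoplasmic reticulum, and *Psmb8* a catalytic subunit of the immunoproteasome, which cuts them. Class II molecules present peptides from taken-up material to CD4 T cells and are typical of B cells, dendritic cells and macrophages, and alveolar type 2 (AT2) cells of the adult lung are also known to carry them. *H2-Aa* encodes the alpha chain of I-A, *H2-Ab1* its beta chain and *H2-Eb1* the beta chain of I-E. *Cd74* encodes the invariant chain, which guards the groove until peptide is loaded, and *Ciita* the transactivator that switches the class II genes on.

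To show what lies upstream of members that were high in the same cells, 150 bases before the transcription start are printed for a heavy chain, the light chain and a pair of class II chains (RefSeq, GRCm38.p6, 5′ to 3′ on the strand of the gene). Capitals mark matches, on either strand, to CCAAT (the core of the Y box of MHC promoters), to GGGATTCCC (a kappa B type site), or to a pair of GAAA with 2 bases between (the core of an interferon-stimulated response element).
*H2-K1*, chr17:34000348-34000497, minus strand: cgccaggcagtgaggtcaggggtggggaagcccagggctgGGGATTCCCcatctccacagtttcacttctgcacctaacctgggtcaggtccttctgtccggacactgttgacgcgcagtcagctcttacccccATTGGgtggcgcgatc
*B2m*, chr2:122147537-122147686, plus strand: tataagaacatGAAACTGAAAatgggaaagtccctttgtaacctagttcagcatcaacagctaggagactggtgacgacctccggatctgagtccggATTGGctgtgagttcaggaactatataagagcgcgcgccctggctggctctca
*H2-Aa*, chr17:34287824-34287973, minus strand: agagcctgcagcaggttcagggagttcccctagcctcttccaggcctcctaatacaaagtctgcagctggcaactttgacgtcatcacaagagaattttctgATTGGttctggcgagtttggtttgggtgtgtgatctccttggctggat
*H2-Eb1*, chr17:34305717-34305866, plus strand: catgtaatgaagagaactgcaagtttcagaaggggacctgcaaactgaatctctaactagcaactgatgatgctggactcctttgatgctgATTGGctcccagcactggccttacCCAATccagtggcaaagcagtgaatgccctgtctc

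All 4 windows held CCAAT, which 24.5% of 32851 RefSeq windows of this length hold. In the class II windows it began 48 bases before the start of *H2-Aa* and 59 and 35 bases before that of *H2-Eb1*. GGGATTCCC lay 110 to 102 bases before the start of *H2-K1* and is in 0.140% of windows. The pair of GAAA lay 139 to 130 bases before the start of *B2m* and is in 1.59% of windows. TATAAA, also searched, is in none of these 4 and in 7.57% of all windows. A match is a description of letters and was not tested as a binding site. *H2-K1* (33996017 to 34000347), *H2-D1* (35262730 to 35267499), *Tap1* (34187553 to 34197225), *Psmb8* (34197721 to 34201454), *H2-Aa* (34282744 to 34287823), *H2-Ab1* (34257689 to 34269419) and *H2-Eb1* (34305867 to 34316674) lie on chromosome 17 (GRCm38, GENCODE). *B2m* lies on chromosome 2 (122147686 to 122153083) and *Ciita* on chromosome 16 (10480059 to 10528418). Within the last 400 bases of their transcripts, 10.2% of the 50-base stretches of *H2-K1* and 10.1% of those of *H2-D1* also occur in other genes, among them *H2-Q* genes, so their counts may include reads of these relatives. *Tap1* overlaps exons of *Psmb9* and *Psmb8* those of *Gm20496* on the opposite strand, and whether the counting used strand is not given in the sources used here.

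After cells with more than 10% mitochondrial UMIs were left out, Batch 1 held 2388 cells with 4432553 UMIs and a median of 1386.5 UMIs per cell, and Batch 2 held 5615 cells with 18232639 UMIs and a median of 2014. No cell barcode was shared by the batches. Cells were clustered without the 10 genes and without the pathway lists below, and clusters were named from markers. The immune class held 165 cells in Batch 1 and 498 in Batch 2, the alveolar class 305 and 1328, the endothelial class 576 and 1522, and the mesenchymal class 1210 and 1976. Airway, erythroid and mixed clusters made up the rest. The 5 immune markers (*Ptprc*, *Laptm5*, *Coro1a*, *Tyrobp* and *Spi1*) summed to 38.7 and 28.2 UMIs per 10000 in the immune class of the 2 batches, and to between 0.0997 and 0.178 in the other 3 classes. In these libraries of mixed tissue, free RNA can add UMIs to any cell, and fewer transcripts of a gene in a class cannot be told apart from fewer cells that carry it unless cells are counted.

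Class I genes were carried by all 4 classes, with immune cells first and endothelial cells second in both batches. Summed over the 5 genes, the immune class had 31.7 UMIs per 10000 in Batch 1 (29.7 to 33.8) and 27.8 in Batch 2 (26.9 to 28.8). The endothelial class followed with 19.9 (19.0 to 20.7) and 18.4 (18.0 to 18.8). Alveolar cells had 5.31 (4.82 to 5.83) and 5.44 (5.26 to 5.62) and mesenchymal cells 5.38 (5.04 to 5.73) and 5.17 (4.94 to 5.40), so that they changed places between the batches and did not differ beyond their counting intervals. The equal sums of the last pair hid opposite patterns in the chains, which are given below.

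**Figure D1:**
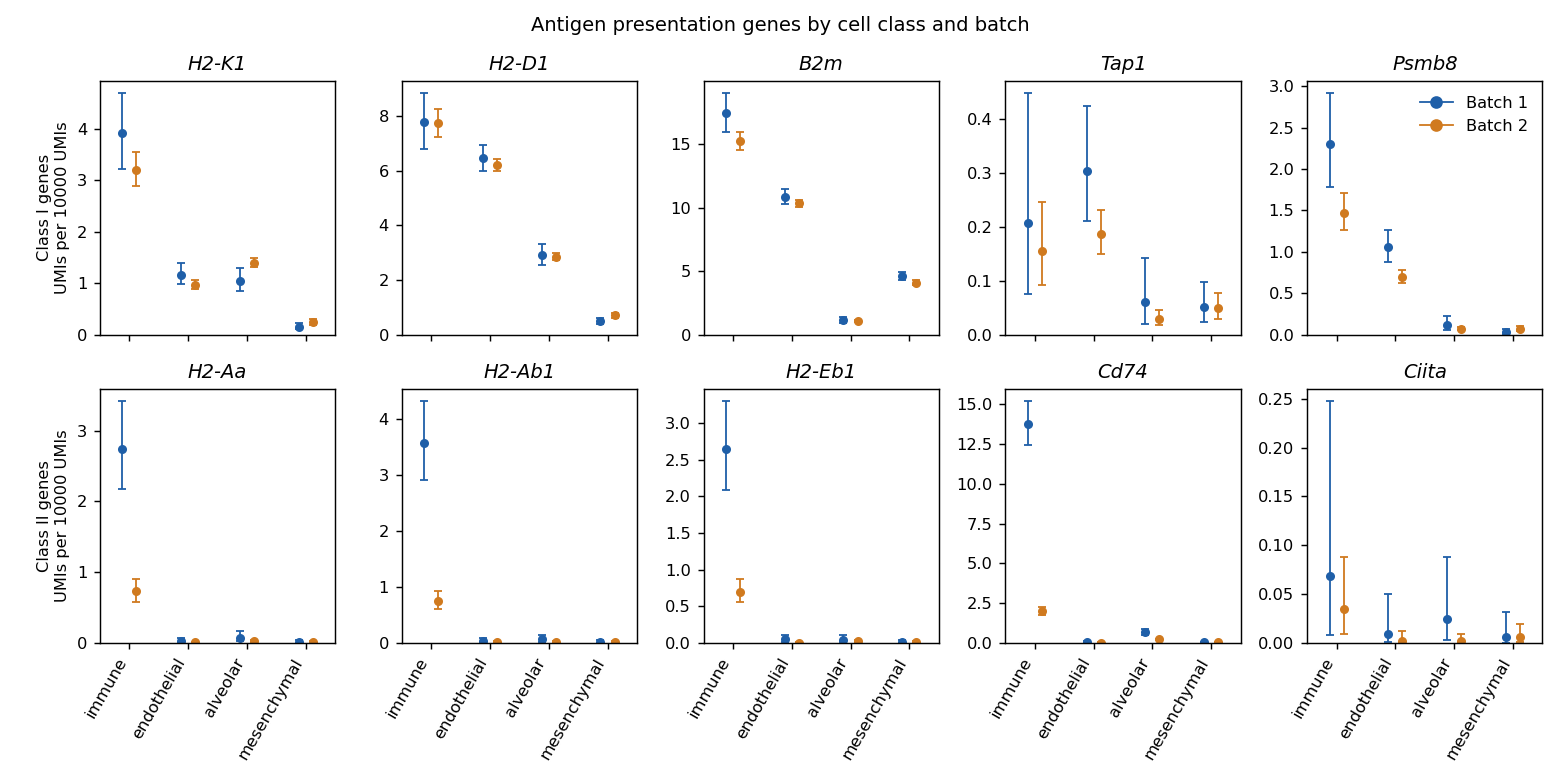
UMIs of each gene per 10000 UMIs (y axis, linear, own scale per panel) in the immune, endothelial, alveolar and mesenchymal classes of Batch 1 (blue) and Batch 2 (orange), with exact Poisson 95% intervals over counts. *B2m* was lowest in alveolar cells, at 1.16 and 1.09, whereas *H2-K1* and *H2-D1* were lowest in mesenchymal cells, and of these 4 classes only the immune class had class II chains above 0.1.

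Among the class I genes, the heavy chain *H2-D1* was found at 7.79 UMIs per 10000 in the immune class of Batch 1 and at 7.75 in that of Batch 2. It was at 6.47 and 6.21 in endothelial, 2.91 and 2.85 in alveolar, and 0.506 and 0.709 in mesenchymal cells. The batches thus gave the same order of the 4 classes. *H2-K1* was at 3.91 and 3.20 in immune, 1.17 and 0.973 in endothelial, 1.05 and 1.40 in alveolar, and 0.153 and 0.242 in mesenchymal cells. Endothelial and alveolar cells changed places between the batches for this gene. The light chain *B2m* was at 17.5 and 15.3 in immune, 10.9 and 10.4 in endothelial, 4.63 and 4.10 in mesenchymal, and 1.16 and 1.09 in alveolar cells. The alveolar level was 0.251 and 0.265 times that of mesenchymal cells. *Psmb8* was at 2.30 and 1.47 in immune, 1.06 and 0.702 in endothelial, 0.122 and 0.0720 in alveolar, and 0.0341 and 0.0674 in mesenchymal cells. *Tap1*, the least counted of the 5, was at 0.206 and 0.155 in immune, 0.303 and 0.186 in endothelial, 0.0612 and 0.0298 in alveolar, and 0.0512 and 0.0485 in mesenchymal cells. Endothelial cells had the highest *Tap1* in both batches, but the intervals of the endothelial and immune classes overlapped.

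Class II genes were largely a matter of the immune class. Their summed level was 22.8 UMIs per 10000 in the immune class of Batch 1 (21.1 to 24.6) and 4.18 in that of Batch 2 (3.82 to 4.57). Alveolar cells had 0.844 (0.657 to 1.07) and 0.268 (0.229 to 0.311), endothelial cells 0.125 (0.0682 to 0.209) and 0.0368 (0.0215 to 0.0590), and mesenchymal cells 0.0512 (0.0234 to 0.0971) and 0.0377 (0.0206 to 0.0633). The immune class was thus highest and the alveolar class next in each batch, and the endothelial and mesenchymal classes overlapped. Immune cells, which were 6.91% and 8.87% of the cells of the 2 batches, held 83.4% of 797 and 66.4% of 730 class II UMIs. Alveolar cells held 8.66% and 23.4% of them.

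By gene, *Cd74* was at 13.8 and 1.97 UMIs per 10000 in immune and 0.648 and 0.208 in alveolar cells of Batch 1 and Batch 2. It was between 0.0130 and 0.0267 in endothelial and mesenchymal cells. *H2-Aa* was at 2.74 and 0.724 in immune cells, *H2-Ab1* at 3.57 and 0.750, and *H2-Eb1* at 2.64 and 0.698. In the alveolar, endothelial and mesenchymal classes no chain gene exceeded 0.0734 in either batch. *Ciita* had 6 UMIs in Batch 1 and 9 in Batch 2 over all kept cells, of which 2 and 4 were in immune cells, too few for a comparison.

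Immune cells also led and alveolar cells followed by detection. At least 1 class II UMI was found in 26.7% of the Batch 1 immune cells (Wilson 95% interval 20.5 to 33.9%) and in 9.44% of the Batch 2 ones (7.17 to 12.3%). The share was 9.84% and 8.13% of alveolar, 0.694% and 0.854% of endothelial, and 0.744% and 0.658% of mesenchymal cells. The last class is used as a low reference only, since free RNA was not measured. Alveolar cells were deeper, with a median of 2112 and 3421.5 UMIs against 1273 and 1674 in mesenchymal cells. With every cell thinned to 600 UMIs, the shares were 18.8% and 6.63% of immune, 5.25% and 0.828% of alveolar, 0.347% and 0.394% of endothelial, and 0.165% and 0.152% of mesenchymal cells, which kept immune cells highest and alveolar cells next.

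To compare the classes over mice, counts were summed by class and batch and tested with edgeR's quasi-likelihood test with batch as a block, across 12041 genes. *Ciita* did not pass the filter on low counts. The class II chains passed through the immune class, where they are high. Neither their number among the genes past the threshold nor their p-values in the immune comparison thus say anything by themselves. In immune cells against the mean log2 level of the other 3 classes, all 5 class I genes and the other 4 class II genes were higher, against 17.5% of all genes tested. *H2-K1* was higher by 2.49 on the log2 scale (SE 0.19, adjusted p = 2.07e-06), *H2-D1* by 1.83 (SE 0.14, adjusted p = 2.08e-06), *B2m* by 2.16 (SE 0.12, adjusted p = 8.88e-08) and *Psmb8* by 3.51 (SE 0.23, adjusted p = 5.76e-07). *Tap1* was higher by 1.25 (SE 0.39, adjusted p = 0.0273), although its level in immune cells was below that in endothelial cells. It did not pass without the replicate block (adjusted p = 0.0609) or with DESeq2 (adjusted p = 0.0523). The class II differences were larger. *Cd74* was higher by 6.80 (SE 0.28, adjusted p = 9.44e-09). For the chain genes only the differences are given, as a description: 6.67 for *H2-Aa*, 6.55 for *H2-Ab1* and 6.52 for *H2-Eb1*. Batch 1 and Batch 2 alone gave 7.04 and 5.58 for *Cd74*, further apart than its SE, which is not a spread between mice. The 9 genes were higher in both.

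**Figure D2:**
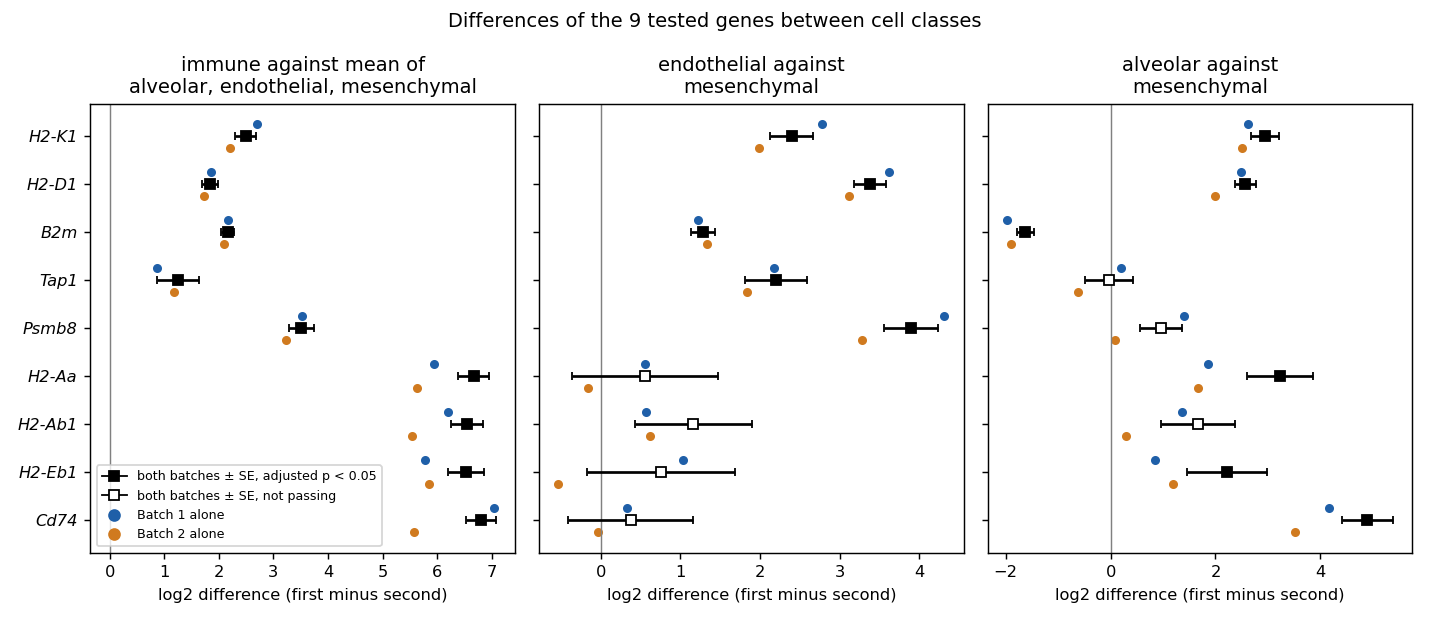
Differences of the 9 tested genes on the log2 scale (x axis) in the 3 comparisons of classes. Squares are the fit of both batches ± SE, filled where the adjusted p was under 0.05, and circles are each batch alone. Class I genes stood right of 0 in the endothelial comparison, while the class II genes, at 0.37 to 1.16, had wide errors and did not pass. *B2m* stood left of 0 in the alveolar comparison at -1.62.

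Endothelial cells differed from mesenchymal cells in class I and not detectably in class II. All 5 class I genes were higher, against 13.4% of all genes tested. The differences were 2.40 for *H2-K1* (SE 0.27, adjusted p = 5.37e-05), 3.39 for *H2-D1* (SE 0.20, adjusted p = 1.04e-06), 1.29 for *B2m* (SE 0.15, adjusted p = 7.99e-05), 2.20 for *Tap1* (SE 0.39, adjusted p = 0.00135) and 3.90 for *Psmb8* (SE 0.34, adjusted p = 8.03e-06). As ratios of levels, *Psmb8* was 31.1 times as high in Batch 1 (95% interval 13.9 to 86.4) and 10.4 times in Batch 2 (6.93 to 16.3). The class II genes had 14 UMIs in 576 endothelial cells of Batch 1 and 17 in 1522 of Batch 2. Of the 14, 11 were in 1 cell that carried all 3 chain genes. None of the 4 tested class II genes passed, with differences from 0.37 for *Cd74* (SE 0.78, adjusted p = 0.789) to 1.16 for *H2-Ab1* (SE 0.74, adjusted p = 0.29), and these counts leave wide errors. Without a cluster of 558 endothelial cells led by haemoglobin genes, the differences of *Cd74*, *H2-Aa* and *H2-Eb1* changed sign, to -0.93, -1.01 and -1.36, and did not pass.

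Alveolar cells held more heavy chain and less light chain than mesenchymal cells. Of the 9 tested genes 5 were higher, against 18.4% of all genes tested, and 1 was lower, against 16.4%. *H2-K1* was higher by 2.94 (SE 0.27, adjusted p = 9.87e-06) and *H2-D1* by 2.57 (SE 0.20, adjusted p = 2.82e-06). *B2m* was lower, at -1.62 (SE 0.16, adjusted p = 1.52e-05), and it was at -1.98 in Batch 1 and -1.91 in Batch 2. These heavy chain and light chain calls held under each of the 10 tested alternatives. *Tap1* (-0.04, SE 0.46) and *Psmb8* (0.96, SE 0.41, adjusted p = 0.0915) did not pass, although *Psmb8* did with at most 5% mitochondrial UMIs (1.45, adjusted p = 0.036). Of the class II genes, *Cd74* was higher by 4.90 (SE 0.49, adjusted p = 1.67e-05), *H2-Aa* by 3.23 (SE 0.63, adjusted p = 0.00204) and *H2-Eb1* by 2.22 (SE 0.77, adjusted p = 0.0438). The batches alone, with a prior count of 2, gave less: 4.17 and 3.53 for *Cd74*, 1.86 and 1.67 for *H2-Aa*, 0.85 and 1.19 for *H2-Eb1*. Alveolar against mesenchymal UMIs were 6 to 1 and 18 to 2 for *H2-Aa*, and 3 to 2 and 12 to 2 for *H2-Eb1*. Those of Batch 1 include 1 AT2-like cell that also carried B cell markers. *H2-Ab1* did not pass (1.67, SE 0.71, adjusted p = 0.0959). *H2-Eb1* passed in 5 of 10 alternatives, and *H2-Aa* lost its call without the replicate block (adjusted p = 0.0685). With library size in place of TMM scaling, the median of all genes moved from -0.01 to -0.34 and the split of genes from 2219 higher and 1971 lower to 1587 and 3113, and *H2-K1*, *H2-D1*, *B2m*, *Cd74* and *H2-Aa* stayed on their sides.

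The opposite directions of heavy and light chain can be read from the counts. UMIs of *H2-K1* and *H2-D1* together were 3.41 per UMI of *B2m* in the alveolar class of Batch 1 and 3.90 in that of Batch 2. They were 0.142 and 0.232 in mesenchymal, 0.702 and 0.694 in endothelial, and 0.669 and 0.718 in immune cells. Since transcripts of different genes are not captured alike, these numbers compare cell types and not the genes. Within the alveolar class, AT2-like cells had 4.92 and 4.59 and AT1-like cells 1.94 and 2.38, all above the endothelial values. In the markers, the alveolar class held 0.110 and 0.103 UMIs of the immune list per 10000, about as in mesenchymal cells, at 0.142 and 0.178.

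The immune class was next divided, since class II is known to be a property of few immune cell types. Its clusters were B-like (27 and 38 cells in the 2 batches), T/NK-like (9 and 30), macrophage-like (28 and 55), monocyte-like (44 and 45), neutrophil-like (3 and 78), basophil or mast-like (5 and 9), and 4 clusters without a name. The unnamed ones were led by *Baiap2* (18 and 83), *Ear2* (9 and 91), *Fabp4* (10 and 37) and *Ppbp*, a platelet gene (12 and 32). Summed class I was highest in macrophage-like cells, with 62.8 UMIs per 10000 in Batch 1 (55.9 to 70.3) and 63.6 in Batch 2 (59.3 to 68.1). T/NK-like cells followed with 37.7 (29.2 to 47.8) and 53.0 (48.2 to 58.2). The other immune clusters lay between 12.8 and 35.4, all above each alveolar and mesenchymal cluster.

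**Figure D3:**
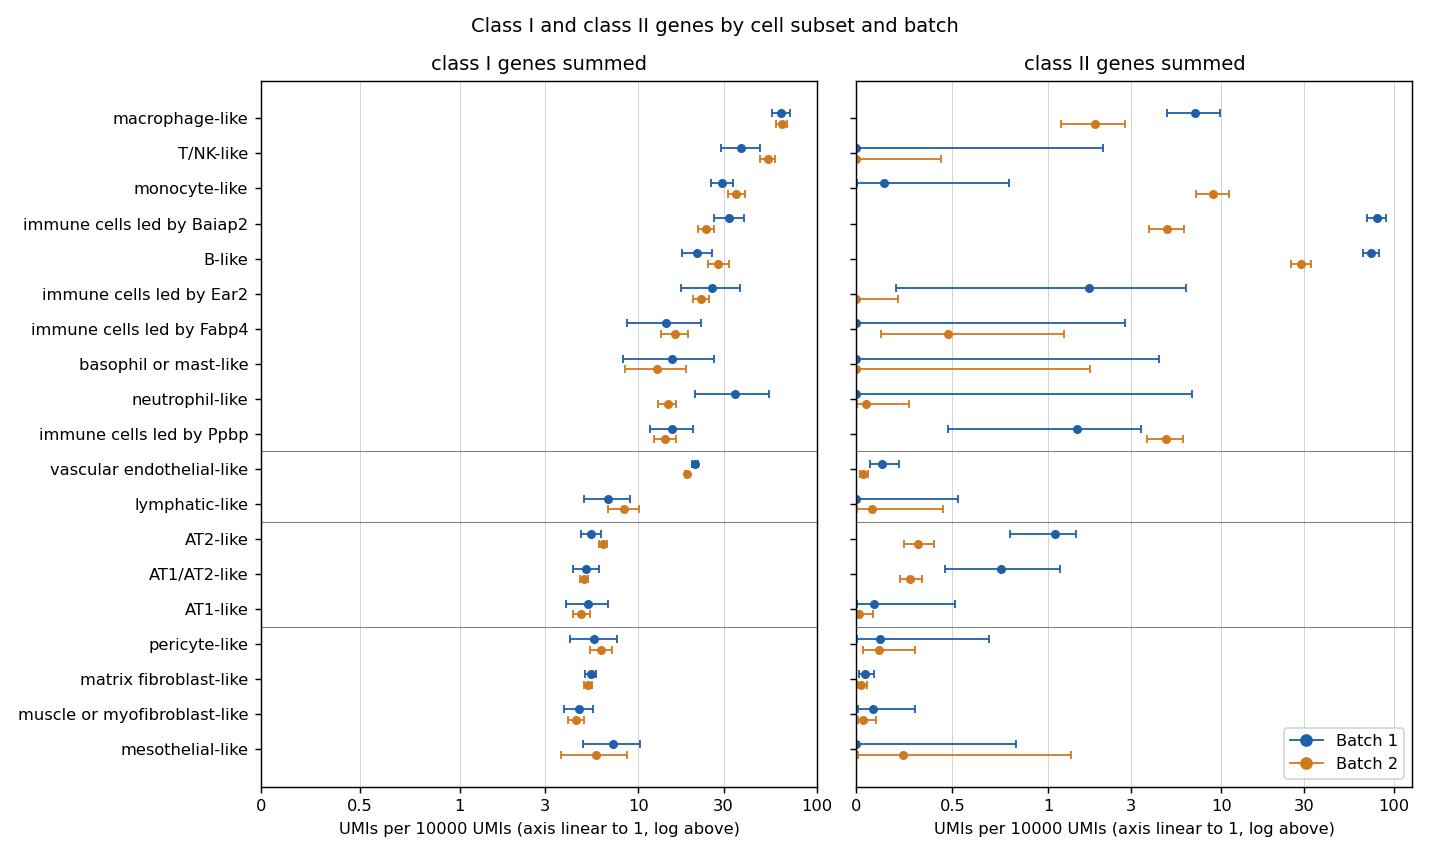
Summed class I (left) and class II (right) UMIs per 10000 UMIs in each cluster group of Batch 1 (blue) and Batch 2 (orange), with exact Poisson 95% intervals. The x axis is linear up to 1 and logarithmic above, and lines separate immune, endothelial, alveolar and mesenchymal groups. Class I put macrophage-like cells first in both batches, whereas class II put B-like cells among the highest and T/NK-like cells at 0.

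B-like cells were the one named immune type with class II in most cells. At least 1 class II UMI was found in 96.3% and 65.8% of the B-like cells of the 2 batches, and in 0 of the 9 and 0 of the 30 T/NK-like cells. *Cd74* was at 54.9 and 15.9 UMIs per 10000 in B-like cells, *H2-Ab1* at 8.41 and 3.92, *H2-Aa* at 5.41 and 4.30, and *H2-Eb1* at 4.81 and 4.55. Against a floor of 3 counts in the T/NK-like cells of the same batch, summed class II was at least 43.7-fold higher in B-like cells in Batch 1 and at least 81.3-fold higher in Batch 2. *Cd74*, *H2-Aa*, *H2-Ab1* and *H2-Eb1* had no UMI in T/NK-like cells, so they entered a test of the 2 types only through cells where they are high, and its results for them are not given. The 4 tested class I genes did not pass the test of B-like against T/NK-like cells, with differences from -0.95 for *B2m* (SE 0.33, adjusted p = 0.159) to -0.45 for *H2-D1* (SE 0.34, adjusted p = 0.748). All 4 were negative in each batch, and *B2m* passed in 2 of 10 alternatives, with library size in place of TMM (adjusted p = 0.0223) and with DESeq2 (adjusted p = 0.0115).

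Between macrophage-like and monocyte-like cells, only the light chain passed among the tested class I genes. *B2m* was at 41.3 and 44.2 UMIs per 10000 in macrophage-like and 15.2 and 20.2 in monocyte-like cells. It was higher in the former by 1.15 (SE 0.28, adjusted p = 0.0166), against 0.653% of 7196 genes tested, and by 1.44 and 1.13 in the batches alone. It lost the call without the replicate block (adjusted p = 0.141), and with library size in place of TMM the split of genes moved from 47 higher and 52 lower to 55 and 38. *H2-K1* (0.74, SE 0.38, adjusted p = 0.569) and *H2-D1* (0.20, SE 0.30, adjusted p = 0.929) did not pass. In Batch 1 and Batch 2 alone, *H2-K1* was higher by 0.94 and 0.80 and *H2-D1* by 0.41 and 0.23. On simulated counts this comparison found 4.92% of genes changed by 1 on the log2 scale, so differences of this size could be missed. Class II went opposite ways in the batches. *Cd74* was at 2.89 and 0.696 UMIs per 10000 in macrophage-like cells but at 0 and 3.51 in monocyte-like cells, where the 0 of Batch 1 gives no fold. The difference was -2.30 in Batch 2 and -0.73 in the fit of both (SE 0.73, adjusted p = 0.8). With the 10 genes and the pathway lists kept in the clustering the difference turned to 9.03. There *Cd74* itself could shape the clusters, so this value tests nothing.

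The class II UMIs sat in few cells. Cells with UMIs of all 3 chain genes numbered 13 of 2388 in Batch 1 and 13 of 5615 in Batch 2, and they held 62.5% and 53.4% of all class II UMIs of their batch. In Batch 1, 7 of the 13 were B-like and 3 were in the *Baiap2*-led cluster. In Batch 2, 4 were B-like and 3 in that cluster. The 3 cells of Batch 1 held 252 of the 255 class II UMIs of the 18 cells of the *Baiap2*-led cluster, and 1 of them alone held 129. The 3 cells of Batch 2 held 67 of the 74 in 83 cells. Without these cells the summed level of the cluster fell from 79.4 to 1.10 UMIs per 10000 in Batch 1 and from 4.83 to 0.472 in Batch 2. In Batch 2, 1 cell held 77 of the 84 class II UMIs of the monocyte-like cluster, and 1 cell 67 of the 68 of the *Ppbp*-led cluster. In the macrophage-like cluster 1 cell held 25 of 34 UMIs in Batch 1 and 1 cell 18 of 24 in Batch 2. In each batch, 1 cell thus held most of the class II UMIs of whichever of the macrophage-like and monocyte-like clusters was higher.

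**Figure D4:**
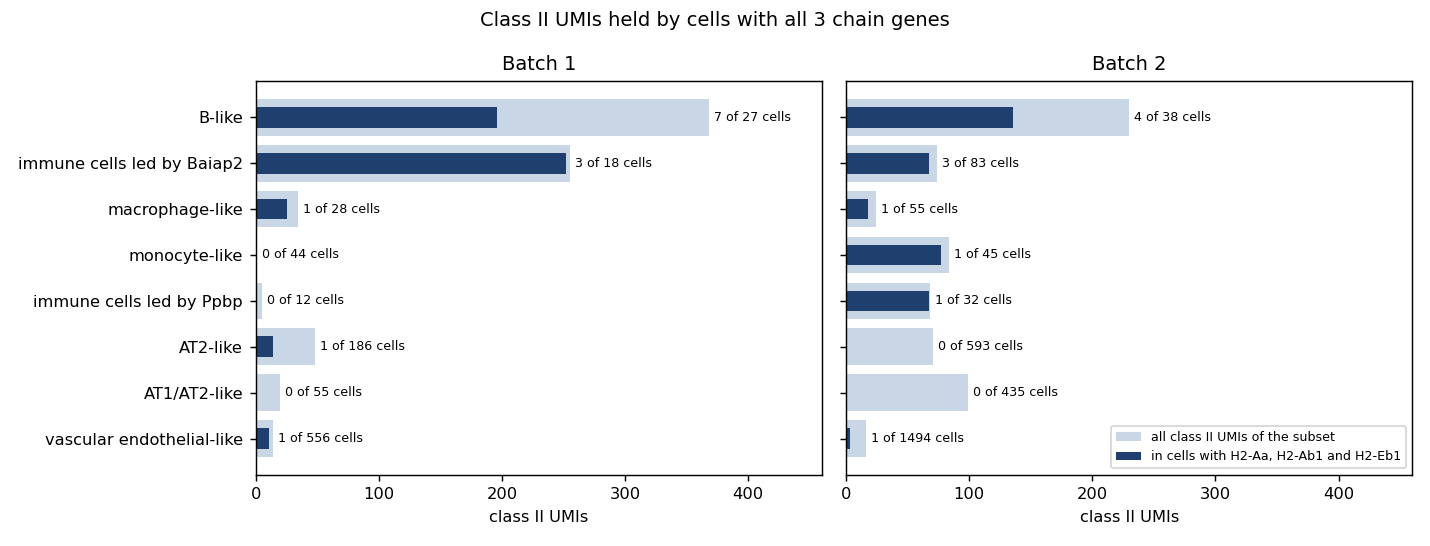
Class II UMIs of 8 cluster groups (x axis, counts; light bars) and the part held by cells with at least 1 UMI of each of *H2-Aa*, *H2-Ab1* and *H2-Eb1* (dark bars), with the number of such cells of all cells, in each batch. In the *Baiap2*-led, macrophage-like and, in Batch 2, monocyte-like and *Ppbp*-led groups, 1 to 3 cells held most of the UMIs, whereas the AT1/AT2-like cells held theirs with no such cell.

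Which cells these were was read from markers. All 11 B-like cells with the 3 chains carried UMIs of the B cell markers *Cd79a*, *Cd79b*, *Ms4a1*, *Ighm* and *Cd22*, with 95 UMIs in the 7 cells of Batch 1 and 129 in the 4 of Batch 2. None of the 6 in the *Baiap2*-led cluster carried any, and 1 of them carried a marker of the dendritic list (*Flt3*, *Xcr1*, *Cd209a*, *Zbtb46* and *Itgax*), with 2 UMIs. That list was at 0.240 and 0.112 UMIs per 10000 in the immune class and at 0.220 and 0.121 in alveolar cells, so dendritic cells could not be named here. Of these *Baiap2*-led cells, 1 in each batch carried macrophage markers (1 and 8 UMIs) and 1 in each batch monocyte markers (4 UMIs each). The *Ppbp*-led cell of Batch 2 carried 3 UMIs of the dendritic list. The macrophage-like cell of Batch 1 carried 19 UMIs of macrophage markers, but that of Batch 2 carried 0 of these and 0 of the immune list. Scrublet called none of the 26 cells a doublet.

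In the alveolar class, *Cd74* was spread thinly over AT2-like and AT1/AT2-like cells. It was found in 14 of 186 AT2-like cells of Batch 1 and 40 of 593 of Batch 2, in 11 of 55 and 55 of 435 AT1/AT2-like cells, and in 1 of 64 and 1 of 300 AT1-like cells. No alveolar cell of Batch 2 held more than 5 *Cd74* UMIs, and the highest of Batch 1 held 10. Levels of *Cd74* were 0.768 and 0.230 UMIs per 10000 in AT2-like, 0.677 and 0.230 in AT1/AT2-like, and 0.0919 and 0.0154 in AT1-like cells. AT2-like cells thus had 8.36 times the AT1-like level in Batch 1 (95% interval 1.40 to 339.7) and 14.9 times in Batch 2 (2.55 to 599), with 1 AT1-like UMI in each batch behind these intervals. In the fit *Cd74* was higher by 3.89 (SE 1.12, adjusted p = 0.0135), and *H2-D1* by 0.86 (SE 0.29, adjusted p = 0.0429), against 7.09% of 7196 genes tested. *Cd74* passed in 7 and *H2-D1* in 4 of 10 alternatives, and with only the cells of the published annotation, all of Batch 1, the *Cd74* difference was -0.47. With library size in place of TMM the median of all genes moved from 0.07 to -0.24, the split of genes from 510 higher and 488 lower to 328 and 739, and *H2-D1* to 0.50 (adjusted p = 0.316). *H2-K1* did not pass (0.99, SE 0.37, adjusted p = 0.0684) except with at most 5% mitochondrial UMIs (1.28, adjusted p = 0.0458), nor did *B2m* (-0.19, SE 0.31, adjusted p = 0.793).

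Chain genes were rarer than *Cd74* in these cells. *H2-Aa*, *H2-Ab1* and *H2-Eb1* had no UMI in the 64 and 300 AT1-like cells. Of the alveolar cells with class II UMIs in Batch 1, 20 had *Cd74* alone, 6 had it with a chain gene, and 2 had a chain gene without it, and in Batch 2 the numbers were 80, 16 and 11. Immune cells with class II UMIs had *Cd74* alone in 21 and 16, with a chain gene in 21 and 26, and a chain gene without *Cd74* in 2 and 5. The 1 AT2-like cell with all 3 chains, in Batch 1, held 14 class II UMIs together with 5 UMIs of these B cell markers. UMIs of the same markers were found in 10.0% of AT2-like cells of Batch 2 with *Cd74* and 4.16% of those without, which had medians of 4992.5 and 3079 UMIs. In Batch 1 the shares were 7.14% of 14 cells and 2.33%, with medians of 2449.5 and 2044.5. The immune list was found in 14.3% and 1.16% in Batch 1 and in 5.0% and 2.35% in Batch 2. Macrophage markers were also more frequent with *Cd74* in both batches. The dendritic list went the other way in AT2-like cells, at 0% and 5.23% in Batch 1 and 2.5% and 4.52% in Batch 2. In AT1/AT2-like cells it was more frequent with *Cd74*, at 27.3% and 4.5% in Batch 1 and 12.7% and 8.68% in Batch 2. Their immune list was at 0% and 4.5% in Batch 1 and 5.5% and 4.74% in Batch 2. B cell and macrophage markers were more frequent with *Cd74* there in both batches. Median UMIs with and without *Cd74* were 4029 and 4549.5 in Batch 1 and 10438 and 5662.5 in Batch 2. The part of cells with immune markers in the *Cd74* level was not tested.

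Lymphatic-like endothelial cells had less class I than vascular ones. Summed class I was at 6.73 and 8.29 UMIs per 10000 in 20 and 28 lymphatic-like cells against 20.7 and 18.7 in 556 and 1494 vascular endothelial-like cells. The 4 tested class I genes were lower, against 7.21% of all genes tested. The differences were -1.87 for *H2-K1* (SE 0.57, adjusted p = 0.022), -1.86 for *H2-D1* (SE 0.32, adjusted p = 5.6e-05), -1.34 for *B2m* (SE 0.29, adjusted p = 0.00113) and -2.68 for *Psmb8* (SE 0.76, adjusted p = 0.0142). *H2-K1* rests on 2 and 5 and *Psmb8* on 2 and 1 lymphatic-like UMIs, and *H2-K1* passed in 6 of 10 alternatives and *Psmb8* lost its call with DESeq2 (adjusted p = 0.0609). With library size in place of TMM the median of all genes moved from -0.32 to -0.12, the split of genes moved from 331 higher and 519 lower to 415 and 389, and the 4 genes stayed negative. Class II in lymphatic-like cells was 0 UMIs in Batch 1 and 1 in Batch 2.

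The partner genes of the pathways were counted from lists of genes other than the 10. Of 17 class I pathway genes, 16 were tested between classes, and 11 were higher and 0 lower in immune cells against the mean of the others, with a median difference of 0.82 beside -0.15 over all genes. Of all genes tested, 17.5% were higher and 16.9% lower in this comparison, 13.4% and 13.7% in endothelial and 18.4% and 16.4% in alveolar against mesenchymal cells, and the counts of each list below stand beside these shares. *Psmb9*, another immunoproteasome subunit, was higher by 3.50 (adjusted p = 1.27e-05), and *H2-M3*, a nonclassical class I gene, by 3.08 (adjusted p = 0.000546). In endothelial against mesenchymal cells 11 were higher and 0 lower, with a median of 1.67 beside -0.04, led by the nonclassical genes *H2-Q4* at 3.44 (adjusted p = 0.000222) and *H2-M3* at 3.42 (adjusted p = 0.000816). In alveolar against mesenchymal cells 7 were higher and 0 lower (median 0.41 beside -0.01), led by *H2-Q4* at 2.88 (adjusted p = 0.000866) and *H2-Q6* at 2.72 (adjusted p = 0.0115). The *H2-Q* genes share sequence with *H2-K1* and *H2-D1*.

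Of 14 class II pathway genes, 9 were tested, and 7 were higher and 0 lower in immune cells (median 4.36), beside 17.5% and 16.9% of all genes. Such genes can pass the filter on low counts through the immune class alone, so this count is a description. For the same reason only the differences are given for *Ctss*, the protease that trims the invariant chain, at 8.18, and for *Cd86*, a costimulatory ligand, at 6.67. In alveolar cells 1 of the 9 was higher, a share below the 18.4% of all genes. It was *Ifi30*, a thiol reductase of antigen processing, at 3.93 (adjusted p = 1.87e-06), which was also higher in AT2-like than in AT1-like cells by 2.97 (adjusted p = 1.01e-05). In endothelial cells 0 were higher and 1 was lower, beside 13.7% of all genes that were lower. It was *Lgmn*, a lysosomal protease, at -2.57 (adjusted p = 0.000135).

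Interferon response genes were listed because interferon raises both classes. Of 14 tested, 8 were higher, beside 17.5% of all genes, and 0 lower in immune cells (median 1.26), led by the receptor subunit *Ifngr1* at 1.92 (adjusted p = 0.00181). In endothelial against mesenchymal cells 10 were higher, beside 13.4% of all genes, and 1, *Ifi27*, was lower at -1.44 (adjusted p = 0.00404). *Ifit1* was higher by 4.10 (adjusted p = 0.00029) and *Bst2*, which tethers viruses, by 3.56 (adjusted p = 1.27e-05). In alveolar against mesenchymal cells 0 were higher and 2 were lower, beside 18.4% and 16.4% of all genes, so that the share of the list that was lower was near that of all genes. The 2 were *Gbp7* at -3.04 (adjusted p = 7.29e-05) and *Ifngr1* at -1.58 (adjusted p = 0.0247). Between subsets few partner genes passed, and not all are named here. Of 6 class II pathway genes tested, 1, *Lgmn*, was higher in macrophage-like than in monocyte-like cells by 3.30 (adjusted p = 4.36e-07), beside 0.653% of all genes. In lymphatic-like against vascular endothelial-like cells, 1 of 10 class I pathway genes was higher and 1 lower, where 7.21% of all genes were lower. *Calr* was higher by 1.00 (adjusted p = 0.0335), and the nonclassical *H2-T23* was lower at -2.36 (adjusted p = 0.00262).

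Outside the 10 genes, those whose level across 26 sums of 13 cluster groups and 2 batches was most like summed class I by Pearson's r were *Slfn2* (0.92), *Inpp5d* (0.90), *Gm4070* (0.89), *Mnda* (0.89) and *Mndal* (0.89). For summed class II they were *Ptpn6* (0.79), *Cd52* (0.78), *Ighm* (0.78), *Cd79b* (0.77) and *Bcl2a1a* (0.76), of which *Ighm* and *Cd79b* encode parts of the B cell receptor. The 26 sums share 2 mice and differ in depth, and the r values are a description.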

How the data were processed

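The authors deposited whole-number UMI counts per gene and cell for each batch, with no normalization. Per the labels and the study's methods, reads were aligned to mm10 with Bowtie2 2.2.7 and unique UMIs over exons were counted with Drop-seq tools, which leaves 3′ tags. Here, cells with over 10% mitochondrial UMIs were left out. Cells were clustered (2000 variable genes, 40 components, 15 neighbours, Leiden resolution 2) without the 10 genes and the pathway lists, immune cells were clustered again, and clusters were named from marker lists or left unnamed. Scrublet calls (13 and 118 cells) were kept in the main analysis and clusters with markers of several classes were set aside. Of 1931 Batch 1 cells with a published cell type in the annotation used here, 96.2% fell in the same major type.

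Counts were summed by class or named subset and batch and fitted with edgeR 4.0.16 in R 4.3.3 (TMM, filterByExpr, quasi-likelihood test, Benjamini-Hochberg over all genes tested, threshold 0.05) with batch as replicate block. The pairing comes from the mouse, since all sums of a batch are from 1 animal. Deviations of sums of the same batch correlated at 0.24 to 0.50 between classes and at 0.028 to 0.498 between subsets. Subsets with at least 10 cells in both batches entered the fit. T/NK-like cells numbered 9 in Batch 1, so B-like against T/NK-like cells came from a further fit with at least 5, chosen after seeing the data. A difference within 1 batch was taken on log2 CPM (prior count 2). An SE is the absolute log2 difference divided by the square root of the F statistic of the test. Its dispersion borrows from all genes, so the SE does not measure the spread between mice. P-values rest on 2 mice. On simulated counts of the immune comparison, 86.6% of genes changed by 2 on the log2 scale were found, and in the macrophage-like comparison 18.8%. Of genes changed by 1, 33.3% and 4.92% were found. Every one of the 10 genes is reported, and of the pathway lists at most the 2 genes with the largest change in each direction in the comparisons of classes. The members and lists were chosen with earlier results of these data known. Python 3.11.15, scanpy 1.11.5 and leidenalg 0.10.2 were used, with DESeq2 1.42.0 as an alternative. Promoter windows are those of RefSeq, and the sequence of *Cd74*, 1 B cell marker and 1 interferon response gene are not reported here.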

Additional observations from a re-analysis of the deposited data

How the results depend on the processing

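The 31 member differences that passed the test kept their direction under every tested alternative, and in 281 of 307 refits they kept the call. The 307 include refits without the *Ppbp*-led cluster. For subsets these repeat the main fit, since that cluster was in no subset sum, so they say nothing. These 31 include the chain genes in immune cells and 4 class II genes in B-like against T/NK-like cells. Those genes entered the tests through the cells where they are high, so their part in these counts says nothing. Without the replicate block, which pairs the sums of a mouse, fewer genes passed in every comparison but that of immune cells, where the number stayed within 1.5 times: 2000 for endothelial against mesenchymal, 2623 for alveolar against mesenchymal, 521 for AT2-like against AT1-like, 492 for lymphatic-like against vascular endothelial-like, 38 for macrophage-like against monocyte-like and 61 for B-like against T/NK-like cells. Calls lost without the block included those of *Tap1* in immune cells, *H2-Aa* and *H2-Eb1* in alveolar cells and *B2m* in macrophage-like cells. Those of *H2-D1* and *Cd74* in AT2-like cells and of *H2-K1* in lymphatic-like cells were lost too. All of these but *H2-Aa* and *B2m* also lost the call in another alternative that kept the block. With at most 5% mitochondrial UMIs, 63 genes passed for macrophage-like against monocyte-like and 57 for B-like against T/NK-like cells, where DESeq2 gave 43. The share of immune cells with class II moved from 26.7% to 18.8% in Batch 1 and from 9.44% to 6.63% in Batch 2 when thinned to 600 UMIs, and to 19.4% and 5.82% with at least 2 UMIs.

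Some differences that had not passed changed sign. For endothelial against mesenchymal cells these were *H2-Aa* (-1.01), *H2-Eb1* (-1.36) and *Cd74* (-0.93) without the haemoglobin-led cluster, an alternative added after seeing the data. *Tap1* in alveolar cells went to 0.31 at 5% mitochondrial UMIs and 0.0089 without Scrublet doublets. With the members and lists kept in the clustering, macrophage-like against monocyte-like gave 9.03 for *Cd74*, 5.40 for *H2-Aa* and 0.21 for *H2-Eb1*. These genes could then shape the clusters compared, so these values test nothing. Others were *Psmb8* in AT2-like cells (-1.10 at Leiden resolution 1), and in lymphatic-like cells *Cd74* (-2.79 at 5% mitochondrial UMIs), *H2-Aa* (1.00 with DESeq2) and *H2-Eb1* (0.22 with DESeq2). Among differences that had passed, *Cd74* in AT2-like cells was -0.47 with only the cells of the published annotation, a value of Batch 1 with no test. The cause was not tested. Leaving out the *Ppbp*-led cluster changed no call of the 10 genes in the comparisons of classes. Unnamed immune clusters were in no subset sum, so the comparisons of subsets could not change under it. With 1 mouse per batch, variation between mice rests on 2 animals, and levels under about 1 UMI per 10000 in small clusters rest on a few UMIs.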
